A study of Mus musculus with 10 samples.

Results

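M2 is a mesenchymal mouse mammary tumour cell line, and its expression was set against that of the 3 other mesenchymal lines of the same study, M1, M3 and M4. The members were its 2 arrays, of 10 in all, and they were compared with the 6 arrays of the 3 other lines, each line counting equally. Cck, which encodes the peptide hormone cholecystokinin, Slc14a1, which encodes a urea transporter, and Padi4, which encodes an enzyme that turns arginine into citrulline in proteins, were higher in M2 than in each of M1, M3 and M4. The hypoxia response genes Bnip3 and Hk2, and the cystine transporter gene Slc7a11, were lower in M2 than in each of them. Of 23 tested glycolysis and hypoxia genes, Bnip3 and Hk2 were the only 2 called lower than each other line. Bnip3 was not so called with the deposited scaling of the arrays.

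The lines M2, M1, M3 and M4 were each derived, per the labels, from a tumour that came back in a female FVB/N mouse after E cells had been injected. E is an epithelial line from a mammary adenocarcinoma of a female of the strain FVB/N-TgN(MMTVneu)202Mul, in which a viral promoter active in the mammary gland drives the neu oncogene. All lines were cultured in RPMI medium with fetal bovine serum to near confluence, and each was measured on 2 arrays. The E arrays entered the normalization and the estimate of spread, and had no weight in the comparison. Each line stands for 1 relapsed tumour, and the sources used here do not say if its 2 arrays were made from 1 culture or from separate ones. The p-values therefore cover only the spread between such paired arrays, and that spread may be technical.

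In this tumour model, relapse after an immune response against neu is known to be accompanied by an epithelial to mesenchymal transition, in which tumour cells lose cell adhesion genes such as Cdh1 and gain mesenchymal genes such as Cdh2 and Zeb1. Cholecystokinin is made by gut endocrine cells and neurons. Its precursor is cut by proprotein convertases and trimmed by carboxypeptidases before secretion. Hypoxia-inducible factors act on genes of glycolysis, glycogen storage, mitochondrial turnover and collagen hydroxylation through short DNA elements with the core ACGTG or GCGTG. The factor ATF4, which is translated when amino acids are short or proteins misfold, acts on genes of amino acid transport and synthesis through elements such as TGATGNAA.

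The promoters of Cck, the gene with the highest change in M2, and of 4 genes that were lower in M2 than in every other mesenchymal line are shown for these elements. The windows run from 250 bases before to 50 bases after the RefSeq start site (build GRCm38.p6), and both strands were searched. Capitals mark, in Cck, the E-box CACGTG and the element TGCGTCA, a variant cAMP response element. In Bnip3, P4ha2 and Hk2 they mark the hypoxia cores, where in Bnip3 overlapping matches run together as CACGTG, and in Slc7a11 the amino acid response element TGATGNAA.
Cck, chr9:121495645-121495944, minus strand: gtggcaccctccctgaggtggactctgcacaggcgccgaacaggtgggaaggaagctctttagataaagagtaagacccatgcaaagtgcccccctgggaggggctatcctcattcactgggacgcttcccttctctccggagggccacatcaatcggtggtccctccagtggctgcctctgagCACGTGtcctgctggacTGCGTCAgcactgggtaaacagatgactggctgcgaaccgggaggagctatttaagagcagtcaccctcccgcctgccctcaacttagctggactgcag
Bnip3, chr7:138909457-138909756, minus strand: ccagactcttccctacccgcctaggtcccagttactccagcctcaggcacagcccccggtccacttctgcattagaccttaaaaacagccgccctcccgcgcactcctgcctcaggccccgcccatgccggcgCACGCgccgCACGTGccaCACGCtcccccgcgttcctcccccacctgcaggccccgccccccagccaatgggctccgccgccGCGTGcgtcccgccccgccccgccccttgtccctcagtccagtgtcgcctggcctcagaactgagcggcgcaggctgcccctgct
P4ha2, chr11:54100674-54100973, plus strand: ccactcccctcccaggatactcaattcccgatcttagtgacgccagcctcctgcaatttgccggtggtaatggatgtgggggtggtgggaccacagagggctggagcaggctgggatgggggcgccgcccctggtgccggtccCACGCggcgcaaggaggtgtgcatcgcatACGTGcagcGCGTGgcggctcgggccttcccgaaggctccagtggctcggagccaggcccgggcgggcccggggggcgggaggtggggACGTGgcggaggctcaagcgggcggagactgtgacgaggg
Hk2, chr6:82774405-82774704, minus strand: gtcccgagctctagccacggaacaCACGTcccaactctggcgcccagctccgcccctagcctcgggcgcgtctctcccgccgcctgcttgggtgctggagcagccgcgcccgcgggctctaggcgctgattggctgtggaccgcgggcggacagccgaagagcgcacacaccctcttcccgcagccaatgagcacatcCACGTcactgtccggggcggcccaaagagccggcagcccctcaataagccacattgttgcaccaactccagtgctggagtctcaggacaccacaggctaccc
Slc7a11, chr3:50443564-50443863, minus strand: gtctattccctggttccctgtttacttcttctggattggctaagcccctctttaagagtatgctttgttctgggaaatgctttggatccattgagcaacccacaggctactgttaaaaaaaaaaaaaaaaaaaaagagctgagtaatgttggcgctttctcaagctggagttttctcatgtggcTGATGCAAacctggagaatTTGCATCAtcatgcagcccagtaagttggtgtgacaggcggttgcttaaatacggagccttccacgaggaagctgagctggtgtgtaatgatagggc

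The Cck window held TGCGTCA at -49 and CACGTG at -66, counted from the start site. Of 32851 promoters in the table, 2.12% held TGCGTCA, 7.15% held CACGTG and 0.234% held both. The Bnip3 window held 5 matches to a hypoxia core, the P4ha2 window 4 and the Hk2 window 2. The CACGTG of the Cck window also holds the core ACGTG, once on each strand, so the gene with the highest change carries 2 such matches as well. At least 1 such core was present in 43.8% of all promoters, so that its presence is common. The Slc7a11 window held the amino acid response element at -66 and -47, on opposite strands; 3.97% of promoters held the element at least once and 0.07% held it 2 or more times. The window of Gys1, another lower gene, held none of the searched cores. These matches describe letters in the windows and were not tested as binding sites.

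Signals are given after quantile normalization of the 10 arrays, in the linear units of the deposited intensities, and a signal of about 16.2 marks the 40th percentile of an array. Changes are differences of log2(signal + 32), written as M2 minus the other line or lines. For genes near the background in the other lines this scale understates the change, and its size depends on the added 32. Calls needed a change of at least 2-fold together with a limma p under 0.05 after Benjamini-Hochberg adjustment over the 14361 genes tested. Against the mean of M1, M3 and M4, 283 genes were called (1.97% of those tested), 161 of them higher in M2 (1.12%) and 122 lower (0.85%). Every gene with a change of at least 2-fold also passed the p-value rule, and 6256 genes had an unadjusted p under 0.05, so the calls were limited by the size of the change. That contrast can be carried by 1 other line alone, so a second rule asked for a gene to differ by at least 2-fold, in the same direction, from each of the 3 lines, with the largest of the 3 p-values adjusted over all genes. By this rule M2 stood apart in 45 genes (0.313%), 36 higher (0.251%) and 9 lower (0.0627%). For comparison, both M2 arrays lay above all 6 others in 1148 genes (7.99%) and below all 6 in 1254 (8.73%), whatever the size of the difference. Genes that stood apart were picked for a gap to each line. A lack of overlap stated for them below describes that choice and is no further support. The share of higher calls depended on the scaling of the arrays: with the deposited scaling kept, 286 genes were called higher and 77 lower, and M2 stood apart higher in 61 and lower in 2. That scaling moved the median change of all genes to 0.131, from -0.015 after quantile normalization.

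The spread among lines was larger than that between the arrays of a line. When limma was fitted to 1 mean per line, with 2 residual degrees of freedom, no gene was called; 195 genes had an unadjusted p under 0.05, 76 of them with a change of at least 2-fold, and the lowest adjusted p was 0.334, for Slc14a1. For Cck the SE of the change was then 0.89, against 0.14 over arrays. An exact permutation of which of the 4 lines is set apart cannot give a p below 0.25. The calls thus describe M2 against these 3 lines, and not how a further line would compare.

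The trimmed mean of the deposited signals was 273 and 216 on the M2 arrays, against 182 to 254 on the 6 others, so that 1 M2 array was the brightest of the 8 before normalization. The hybridization controls had geometric means of 1356 and 1244 in M2 against 1067 to 1479. For Actb the 3' probe set was brighter than the 5' one by a factor of 1.22 and 1.25 in M2, against 1.16 to 1.38. Across probe sets the 2 arrays of a mesenchymal line correlated at 0.992 to 0.993, an M2 array and an array of another mesenchymal line at 0.972 to 0.976, and arrays of different lines among M1, M3 and M4 at 0.957 to 0.968. When each line in turn was set against the mean of the other 3, M2 had 283 genes called, M1 638, M3 976 and M4 665. M2 stood apart from each other line in 45 genes, M1 in 231, M3 in 450 and M4 in 245, so M2 had the fewest calls by both rules.

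Most of the identity markers looked at had M2 with the other mesenchymal lines. Krt8 was high in M2, M3, M4 and E, and low in M1 alone. S100a4, a calcium-binding protein of motile mesenchymal cells, had signals of 12829 and 13548 in M2, against 10629 to 12692 on the 6 other mesenchymal arrays and 8.95 and 8.15 in E. Zeb1, a repressor of Cdh1, had 1047 and 1014 in M2, against 666 to 1291 in the other mesenchymal lines and 5.8 and 14.1 in E. Both genes were thus near the background in E and well above it in every mesenchymal line. Cdh2, which encodes N-cadherin, had 1557 and 1338 in M2, above all 6 other mesenchymal arrays (412 to 1107), but its change of 0.80 was under 2-fold. Cdh1, which encodes E-cadherin, had 43.7 and 35.2 in M2, against 0.71 to 89.5 in the other mesenchymal lines and 3162 and 2914 in E. Vim, Fn1, Snai2, Twist1, Epcam and Erbb2 were not called either (changes of 0.33, -0.61, -0.48, -0.28, -0.01 and -0.08). Of 17 tested mesenchymal identity and transition genes, none was called in either direction by limma. Their median change was 0.153, against -0.015 for all genes. An unadjusted limma p under 0.05 was found for 10 of the 17, and for 6256 of all 14361 genes tested. Krt8, a keratin of simple epithelia, had 8318 and 7682 in M2, against means of 57 in M1, 6223 in M3 and 5455 in M4. E had 7469 and 6978, a difference of 0.15 between M2 and E. Cldn3, Cldn7 and Spint2 did not pass the filter on low values.

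Cck had the highest change of any gene tested. Its signals were 4150.1 and 4280.2 in M2, against 7.47 and 21.1 in M1, 186 and 149.9 in M3 and 132 and 122 in M4, and 0.65 and 14.6 in E. The 2 M2 arrays differed little and lay far above every array of every other line, with no overlap. The change against the mean of the 3 lines was 5.23 ± 0.14 (SE; limma adjusted p = 8.179e-11), and the smallest of the 3 differences, against M3, was 4.41. Cck was represented by a single kept probe set. In bulk RNA, fewer cells making a transcript and less of it per cell cannot be told apart, so it is not known whether all M2 cells carried the Cck transcript.

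Of 18 tested neuropeptide and secretory granule genes, Cck was called and the other 17 were not, and the median change was 0.186. An unadjusted limma p under 0.05 was found for 6 of the 18, and for 6256 of all 14361 genes tested. Cpe, the carboxypeptidase that trims the cholecystokinin precursor, had 9766 and 9229 in M2, against means of 7116 in M1, 9342 in M3 and 4612 in M4, a change of 0.49 (limma adjusted p = 2.048e-07) that was under 2-fold. Pam, which amidates peptide hormones, had a change of 0.32. The tyrosyl sulfotransferase genes Tpst1 and Tpst2 had changes of -0.04 and -0.08, and their M2 signals overlapped those of the other lines. The other peptide precursors tested, Tac1, Npy, Penk, Pdyn, Pomc, Gal and Vip, had M2 means between 8.82 and 56.1, and their changes lay between -0.10 and 0.38. Nppb, a peptide hormone gene outside this list, was called.

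Slc14a1 encodes the facilitated urea transporter known from red blood cells and the kidney. Its signals were 1188 and 1112 in M2, against 1.36 and 0.37 in M1, 17.5 and 15.3 in M3 and 15.02 and 9.54 in M4, and 0.96 and 4.31 in E. Every array other than those of M2 was near or below the 40th percentile. The change was 4.84 ± 0.12 (SE; limma adjusted p = 3.755e-11), and a second probe set of the gene gave 3.77. The urea, aquaporin and arginine metabolism list had 18 tested genes, of which 2 were called higher and none lower, with a median change of 0.067. The other called member, the water channel gene Aqp5, had 2786 and 2806 in M2 against means of 3029.9 in M1, 1033 in M3 and 498 in M4. Aqp5 was thus not higher in M2 than in M1. Slc14a2, the related renal urea transporter gene, had an M2 mean of 35.1 against 21 to 22.7 in the other lines, with a change of 0.32 that was not called.

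Padi4 separated the lines in a different way. It had 650.2 and 605 in M2, against 1.76 and 1.35 in M1, 212 and 224 in M3 and 2.01 and 1.69 in M4, and 103 and 76 in E. M3 and E thus also had Padi4 signal, and M1 and M4 had almost none. The change was 3.33 ± 0.11 (SE; limma adjusted p = 2.814e-10), and the difference from M3 was 1.40. Padi2, the most widely expressed gene of this enzyme family, had 271 and 239 in M2, against 82.4 and 64.2 in M1, 83.5 and 144 in M3 and 39.4 and 36.5 in M4. Its change was 1.497 ± 0.15 (SE; limma adjusted p = 7.942e-06), with no overlap between M2 and the other lines. The Padi2 difference from M3 was 1.01, just past 2-fold, and Padi2 stood apart in 19 of 24 other settings of the processing. Padi1, Padi3 and Padi6 had M2 means between 11.9 and 27.4 and changes between -0.24 and 0.10. Of 7 tested deiminase and citrullination substrate genes, the 2 named here were called higher and none lower.

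**Figure D1:**
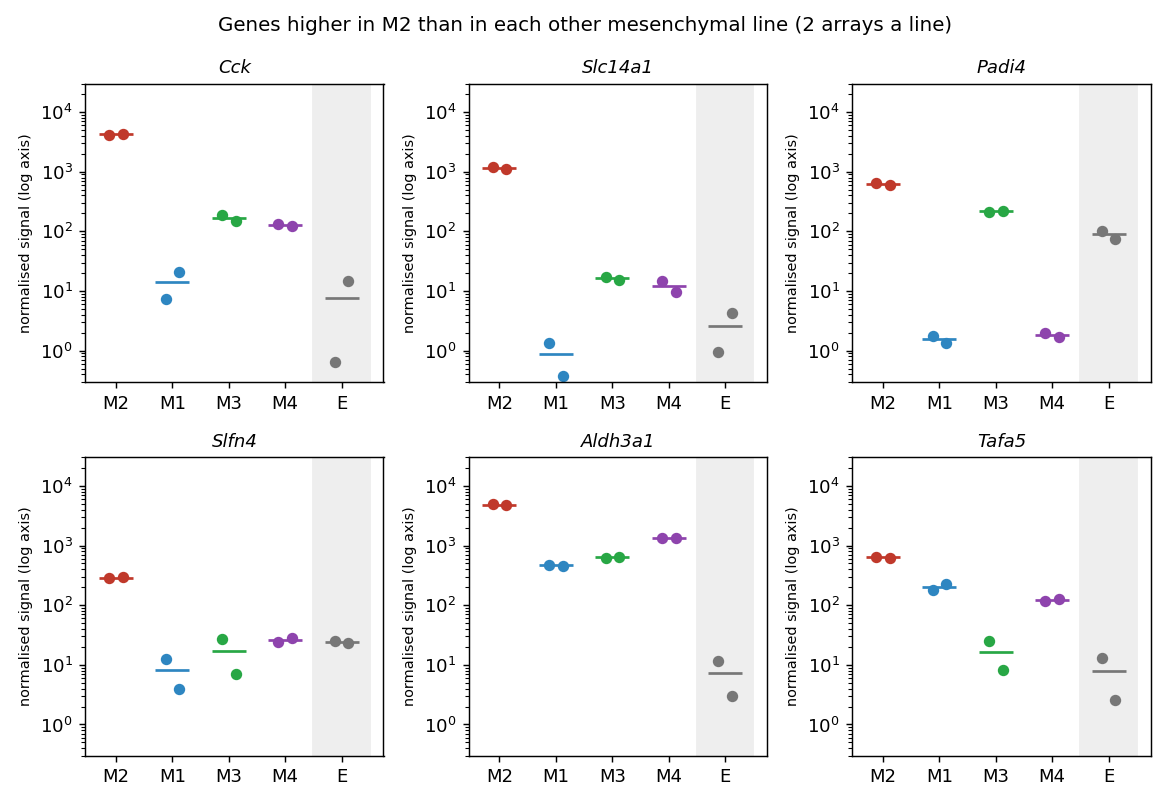
Normalised signal on a log axis of 6 genes that were higher in M2 than in each other mesenchymal line; points are arrays, horizontal lines are the means of the 2 arrays of a line, and the grey band marks E, which was not part of the comparison. Cck and Slc14a1 come near their M2 level in no other line, Padi4 has an intermediate level in M3 and in E, and Aldh3a1 is above 400 in every mesenchymal line and near the background in E.

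After these 3, the genes in which M2 stood apart with the highest changes were Slfn4 (2.74), Aldh3a1 (2.66), Tafa5 (2.48), Chil1 (2.23), Frmd4b (2.07), Itga8 (2.04), Fyb (1.92), Pxylp1 (1.91), Nppb (1.82), Cldn1 (1.79), Hspb7 (1.75) and Cd24a (1.74). Slfn4, a schlafen family gene known from macrophages, had 283 and 296 in M2 and at most 28 on any other mesenchymal array. Tafa5, a secreted chemokine-like protein of the brain, had 654 and 626 in M2, against means of 205 in M1, 16.6 in M3 and 122 in M4. Nppb, which encodes B-type natriuretic peptide of the heart, had 4817 and 5274 in M2, against means of 2054 in M1, 1378 in M3 and 984 in M4. The M2 signals of these genes lay above those of all 6 other arrays. Of the 45 genes in which M2 stood apart, 23 had 1 kept probe set. Of the 22 with several, every other probe set was called the same way in 11, some other probe set was not called in 11, and none was called the opposite way. In 18 of the 36 higher genes every other mesenchymal line had a mean under 100, and in 6 the M2 mean itself was under 100.

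Some of the higher genes encode enzymes that act on aldehydes, quinones and glutathione, and they were put together after their values were seen. Aldh3a1, an aldehyde dehydrogenase, had 4876 and 4711 in M2, against 478 and 447 in M1, 624 and 643 in M3 and 1343 and 1316 in M4. The M2 arrays lay well above all others, and the change was 2.66 ± 0.07 (SE; limma adjusted p = 9.374e-11). Nqo1, a quinone reductase, had 1275 and 1253 in M2, against means of 399 in M1, 449 in M3 and 533 in M4. Gsta4, a glutathione transferase for lipid aldehydes, had 1824 and 1858 in M2, against means of 520.4 in M1, 416 in M3 and 763 in M4. For both genes the M2 arrays lay above all 6 others. The levels in E differed: Gsta4 had a mean of 8514 there, above M2, while Nqo1 and Aldh3a1 were near the background (12 and 7.3). Gstt1 was also higher in E, with a mean of 948 against 248 in M2. Aox1, an aldehyde oxidase, and Akr1c14, an aldo-keto reductase, also stood apart, with changes of 1.28 and 1.15. Akr1c14 was low, with a mean of 58.7 in M2. Across 24 other settings of the processing Aox1 stood apart in 19 and Akr1c14 in 15. Of 21 tested metallothionein, glutathione and NRF2 target genes, 3 were called higher (Gsta4, Nqo1 and Gstt1) and none lower, and the median change was 0.146. The glutathione synthesis genes Gclc and Gclm and the NRF2 targets Hmox1, Txnrd1 and Srxn1 had changes of 0.06, -0.10, 0.29, -0.28 and -0.21 and were not called. Gstm1 and Gstm2, with 0.67 and 0.71, were above all 6 other arrays on both M2 arrays but under 2-fold.

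For 5 of the higher genes, grouped after their values were seen, M2 signals lay between those of the other mesenchymal lines and those of E. Cldn1, a tight junction protein, had 203 and 166 in M2, against 42.8 and 36.7 in M1, 63.5 and 71.5 in M3 and 1.57 and 2.02 in M4, and 449 and 462 in E. Cd24a, a surface glycoprotein of mammary epithelium, had 202 and 197 in M2, against means of 68.8 in M1, 21.8 in M3 and 29.8 in M4, and 6160 and 6573 in E. Lamb3, a laminin-332 chain, had 131 and 163 in M2, against means of 47.8 in M1, 41.8 in M3 and 10.7 in M4, and a mean of 635 in E. For these genes M2 lay above every other mesenchymal array and below both E arrays. Of 16 tested basement membrane genes 3 were called higher (Lamb3, Col4a6 and Col18a1) and none lower, with a median of 0.143. The share called higher was 18.8%, against 1.12% of all genes tested. Col4a6 and Col18a1 had M2 means below M3 and above E. Itga8, the alpha subunit of a nephronectin-binding integrin, had 1659 and 1629 in M2, against means of 217 in M1, 468 in M3 and 516 in M4, and 4760 in E, and its change had an SE of 0.05 (limma adjusted p = 3.119e-11). Chil1, a secreted chitinase-like protein of the mammary gland, had 941 and 854 in M2, against means of 19.7 in M1, 385 in M3 and 328 in M4, and 9002 in E. In 10 of the 36 higher genes E was above M2, and in 3 it lay between M2 and the other lines. In 6 it lay within the range of M1, M3 and M4, and in 17 it was below all mesenchymal lines. The same split was not made for all genes tested, so these counts are a description without a share to compare them with. Cldn1 was the only called gene of 18 tested epithelial adhesion and polarity genes, whose median change was 0.084.

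Receptors and signalling genes were also among those in which M2 stood apart. Pdgfrb, the receptor for PDGF-B on fibroblasts and pericytes, had 2098 and 1601 in M2, against 371 and 369 in M1, 557 and 513 in M3 and 817 and 761 in M4, and 3.43 and 0.21 in E. Its change was 1.71 ± 0.09 (SE; limma adjusted p = 1.989e-08), and every mesenchymal line had clear Pdgfrb signal while E had almost none. In the same family the ligand gene Pdgfc was lower, with 27.4 and 20.9 in M2 against means of 521 in M1, 57.7 in M3 and 971 in M4, a change of -2.71, with a difference of -0.68 from M3. Clcf1, a cytokine of the interleukin-6 family, had 1468 and 1239 in M2, against means of 607 in M1, 307 in M3 and 420.1 in M4. Rgs16, which shortens G protein signals, had 1173 and 1152 in M2, against means of 367 in M1, 486 in M3 and 368 in M4. For Pdgfrb, Clcf1 and Rgs16 the M2 signals did not overlap those of the other lines, which was nearly fixed by the rule that picked them. Of 38 tested receptor tyrosine kinase and ligand genes, Pdgfrb, Ror1 and Vegfc were called higher and Pdgfc lower, and the median was 0.056. The shares were 7.89% higher and 2.63% lower, against 1.12% and 0.85% of all genes tested. Other probe sets of Ror1 (0.30 and 0.31) and of Vegfc (0.94 and 0.97) were not called. Across 24 other settings of the processing Ror1 lost its call in 4 and Vegfc in 6, and M2 stood apart for neither.

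Krt14, a basal keratin, stood apart at a low level, with 79.2 and 77.4 in M2, against 26.8 and 14.7 in M1, 3.02 and 2 in M3 and 3.55 and 0.91 in M4. Of its 3 kept probe sets the one used, whose probes may also match other genes, gave a change of 1.48, the second gave 1.13 and the third gave -0.01, so the call depends on the probe set.

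**Figure D2:**
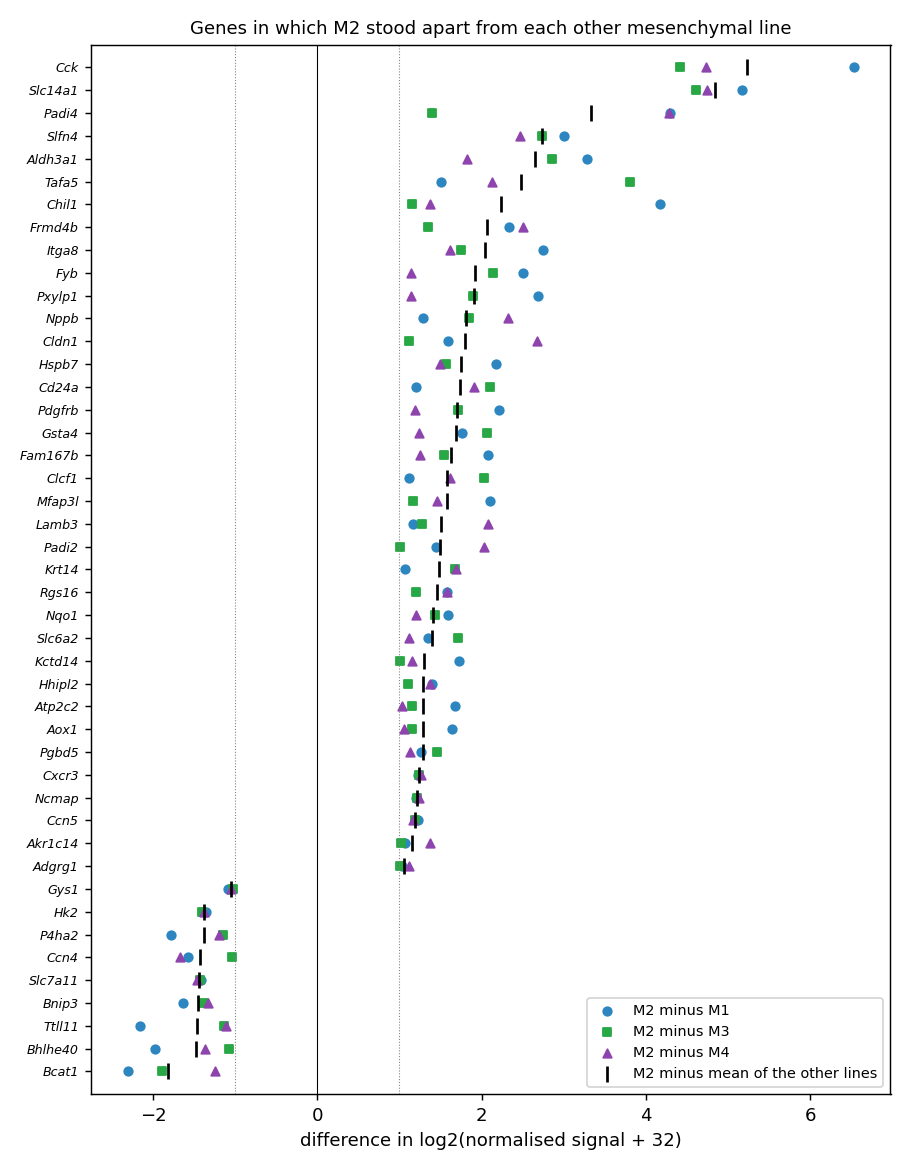
Differences of log2(normalised signal + 32) between M2 and each of M1, M3 and M4, and between M2 and the mean of the 3 lines, for the 45 genes in which M2 stood apart; dotted lines mark 2-fold. Of the 36 higher genes, 15 were nearest to M2 in M4, 13 in M3 and 8 in M1, and the 9 lower genes are at the bottom.

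The 9 genes lower in M2 than in each other line were Bcat1 (-1.82), Bhlhe40 (-1.47), Ttll11 (-1.47), Bnip3 (-1.45), Slc7a11 (-1.44), Ccn4 (-1.43), P4ha2 (-1.38), Hk2 (-1.38) and Gys1 (-1.05). Under the deposited scaling, median centring and scaling to the hybridization controls, M2 stood apart lower in 2, 3 and 4 genes. Hk2 and Slc7a11 were lower than each line under all 3, Bnip3 was not under the deposited scaling, Bcat1 was so only under the last, and Bhlhe40, Ttll11, Ccn4, P4ha2 and Gys1 were so under none. Bnip3, a mitochondrial protein that promotes mitophagy and a known hypoxia target whose promoter is printed above, had 986 and 1011 in M2, against 3130.2 and 3214 in M1, 2631 and 2678 in M3 and 2538 and 2565 in M4. Its change was -1.45 ± 0.04 (SE; limma adjusted p = 1.839e-10), and the 3 differences were -1.64, -1.38 and -1.33. Hk2, the inducible hexokinase, had 357 and 333 in M2, against 925 and 940.3 in M1, 965 and 959 in M3 and 967 and 925 in M4. The 3 other lines were alike for Hk2 and M2 was below all of them, with a change of -1.38 ± 0.05 (SE; limma adjusted p = 5.472e-10). E, with 574 and 563, lay between them.

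P4ha2, a collagen prolyl 4-hydroxylase subunit, had 423 and 345 in M2, against 1425 and 1369.5 in M1, 875 and 905 in M3 and 958 and 886 in M4. Bhlhe40, a transcriptional repressor that hypoxia induces, had 205 and 189 in M2, against means of 866 in M1, 449 in M3 and 556 in M4, and 3212 and 3224 in E. Gys1, the muscle-type glycogen synthase, had 139 and 137 in M2, against 304 to 337 on the 6 other arrays. Its change of -1.05 was just past 2-fold, and it fell short of 2-fold under each of the other scalings and with a second probe set averaged in. The M2 signals of these genes lay below those of all 6 other arrays. The 4 remaining genes have other roles. Bcat1, the cytosolic branched-chain aminotransferase, had 698 and 677 in M2, against means of 3528 in M1, 2643 in M3 and 1680.5 in M4, and was near the background in E. Ccn4, a matricellular Wnt target, had 74.3 and 81.3 in M2, against means of 295 in M1, 193 in M3 and 317 in M4, while its relative Ccn5 was higher in M2 (1.20).

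Across the glycolysis and hypoxia list, 23 genes were tested, 4 were lower in M2 (Bnip3, Hk2, Ndrg1 and Ero1a) and none higher, and the median change was -0.375, against -0.015 for all genes. The share called lower was 17.4%, against 0.85% of all genes tested. The median was -0.385 against M1, -0.197 against M3 and -0.271 against M4. In 19 of the 23 genes the change was below 0, as it was in 7510 of all 14361 genes tested. Ndrg1 overlapped M4 (a difference of -0.01). Ero1a had 1306 and 1214 in M2, below all 6 other arrays, but the difference from M4 was only -0.11. Ero1a was not called under any of the 3 other scalings, nor without M3. Under those scalings 3 members of the list were called lower. The list medians were then -0.222 (deposited scaling), -0.295 (medians centred) and -0.239 (hybridization controls). The medians of all genes moved too, to 0.131, 0.057 and 0.09 in the same order. Pfkl and Pfkp, phosphofructokinase genes, had changes of -0.96 and -0.77 and were below all 6 other arrays on both M2 arrays. Slc2a1, Pgk1, Ldha and Car9 had changes of -0.28, -0.03, -0.17 and -0.50 and their M2 signals overlapped those of the other lines. Adm, the adrenomedullin gene and also a hypoxia target, went the other way: it was above all 6 other arrays, with a change of 0.67 that was not called.

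**Figure D3:**
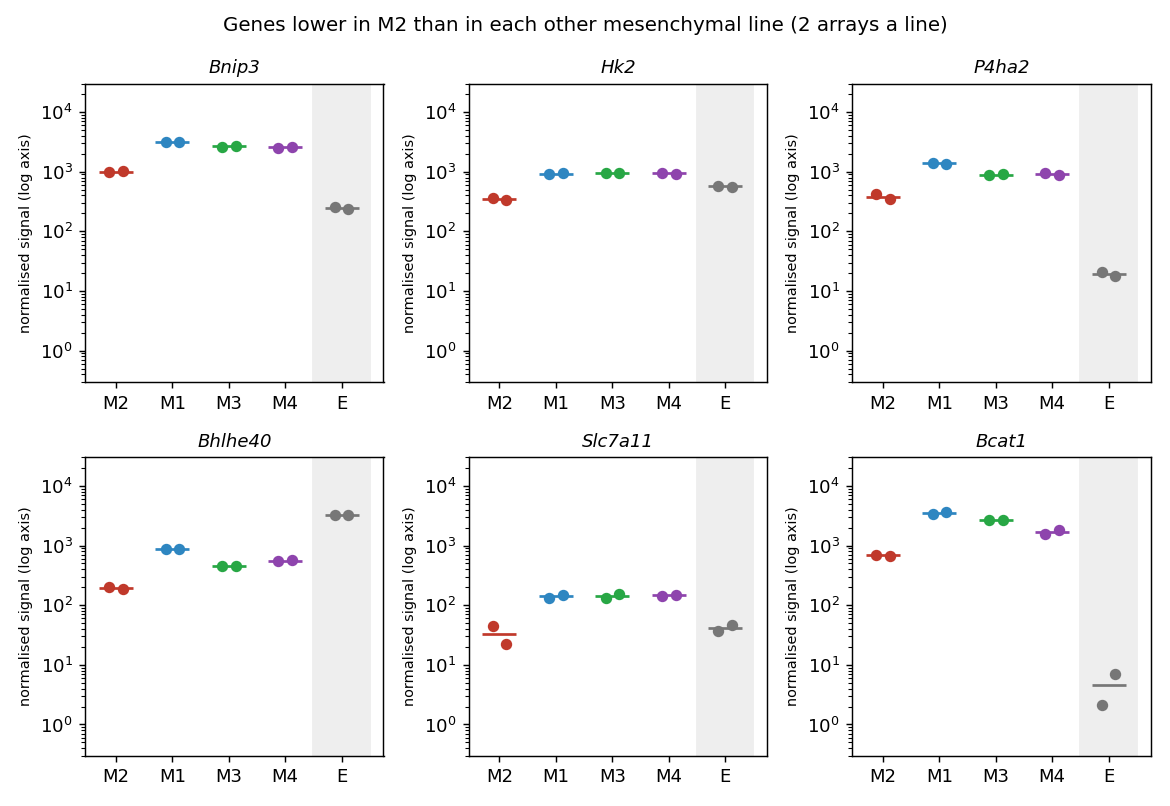
Normalised signal on a log axis of 6 genes that were lower in M2 than in each other mesenchymal line; points are arrays, horizontal lines are means of the 2 arrays of a line, and the grey band marks E. The M2 arrays lie below the 6 arrays of M1, M3 and M4 in each panel, and E lies below M2 for Bnip3, P4ha2 and Bcat1 and above it for Bhlhe40 and Hk2.

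Slc7a11, which imports cystine for glutathione synthesis and carries the paired amino acid response elements printed above, had 44.4 and 22.4 in M2, against 129 and 151 in M1, 130.4 and 154 in M3 and 145 and 147 in M4. The groups did not overlap, and the change was -1.44 ± 0.13 (SE; limma adjusted p = 2.858e-06). A second probe set of Slc7a11 gave -0.65 and was not called, and with the mean of both M2 no longer stood apart. Slc7a11 belongs to a list of amino acid transport and ATF4 target genes. Of the 23 tested, 8 were lower in M2 (34.8%) and none higher, against 0.85% lower of all genes tested. The median change of the list was -0.836, against -0.015 for all genes. In 22 of its 23 genes the change was below 0, as it was in 7510 of all 14361 genes tested. The difference was not shared evenly by the other lines: the list medians were -1.256 against M1, -1.296 against M3 and -0.235 against M4. With M4 left out of the other lines 15 members were called lower, and with M1 left out 4 were.

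Trib3, a pseudokinase induced by stress, had 282 and 284 in M2, against means of 1407 in M1, 1757 in M3 and 396 in M4, a change of -1.71 ± 0.09 (SE; limma adjusted p = 1.216e-08). Aldh1l2, a mitochondrial folate enzyme, had 537 and 488 in M2, against means of 1899.9 in M1, 4575 in M3 and 531 in M4, so that M2 and M4 overlapped. Slc7a5, a transporter of large neutral amino acids, had 422 and 391 in M2, against means of 2480 in M1, 1362 in M3 and 482 in M4. Chac1, Ddit3, Mthfd2 and Atf3 were also lower (changes of -1.32, -1.30, -1.23 and -1.14). M2 was close to M4 for most of these genes and well below M1 and M3, and Slc7a11 was the only one of the 8 that stood apart from all 3 lines. Atf4 itself had 4372 and 3556 in M2, against 4408 to 7049 on the 6 other arrays, a change of -0.47 that was not called. Asns, the asparagine synthetase gene, had a change of -0.91 and was below all 6 other arrays without reaching 2-fold.

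Many calls against the mean of the other lines were carried by 1 or 2 of them. Col1a2, a chain of type I collagen, had the lowest change of the named genes (-3.59 ± 0.07, SE; limma adjusted p = 2.817e-12), with 143 and 148 in M2, against 8592 and 8677 in M1, 103 and 115 in M3 and 8177 and 7706 in M4. M2 was thus 0.33 above M3 for Col1a2. Col1a1, which encodes the partner chain, had 661 and 677 in M2, against means of 1138 in M1, 94.1 in M3 and 1484 in M4, with a change of 0.21 that was not called. Efemp1 was lower only through M1 (11.5 in M2, against 4285 in M1, 5.98 in M3 and 13.6 in M4, as means), and Lum, Bgn and Thbs2 through M4. Of 35 tested fibrillar collagen and matrix assembly genes, 2 were called higher (Col6a2 and Mgp) and 8 lower, and the median was 0.145. The single member of this list in which M2 stood apart was P4ha2.

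Krt8 and Krt18, which encode partner keratins of simple epithelia, were called in opposite directions. Krt8 had 8318 and 7682 in M2, against 46.7 and 67.4 in M1, 6238 and 6208 in M3 and 5588 and 5323 in M4, and 7469 and 6978 in E, a change of 2.47 ± 0.07 (SE; limma adjusted p = 9.747e-11) that was 0.36 against M3. Krt18 had 7.72 and 20.9 in M2, against 512 and 532 in M1, 7.48 and 7.73 in M3 and 3.55 and 7.51 in M4, and 11677 and 11714 in E. M1 was the line with low Krt8 and detectable Krt18, and M2 resembled M3 and M4. With M1 left out, Krt8 was no longer called.

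Of 25 tested matrix proteases and inhibitors, 4 were called higher (Mmp3, Mmp13, Mmp10 and Mmp9) and 1 lower (Adamts5), with a median of 0.06. The shares were 16% higher and 4% lower, against 1.12% and 0.85% of all genes tested. M2 stood apart from all 3 lines in none of the 25. Mmp3, stromelysin 1, had 6139 and 6253 in M2, against means of 741 in M1, 317 in M3 and 4811 in M4, a change of 2.51 ± 0.05 (SE; limma adjusted p = 2.817e-12). Mmp10, stromelysin 2, had 2618 and 2987 in M2, above means of 623 in M1, 1492 in M3 and 1312 in M4. Mmp13, collagenase 3, had 5258 and 4774 in M2, against means of 89.1 in M1, 7860.2 in M3 and 1687 in M4. Mmp3 and Mmp10 were above all 6 other arrays, and Mmp13 was below M3. Adamts5, an aggrecanase, had a change of -1.10. Its other probe sets gave -0.91 and -0.50 and were not called, and Adamts5 lost its call in 7 of 24 other settings.

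Cell cycle and sterol genes were called through M3 alone. Of 29 tested mitosis genes 3 were called higher in M2 (Top2a, Birc5 and Kif20a) and none lower. The list median was 2.174 against M3, but -0.143 against M1 and -0.112 against M4. Top2a, which untangles DNA before division, had 3609 and 3332 in M2, against means of 2829 in M1, 354 in M3 and 3149.8 in M4. Of 27 tested DNA replication genes 4 were called higher (Tk1, Mcm5, Rrm2 and Ccne2), with medians of 1.752 against M3, -0.12 against M1 and -0.159 against M4. Of 25 tested sterol and fatty acid synthesis genes Idi1 was called, with a median of 1.392 against M3. Without M3, no member of these 3 lists was called. The levels of the cell cycle lists in M2 were thus close to those in M1 and M4.

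**Figure D4:**
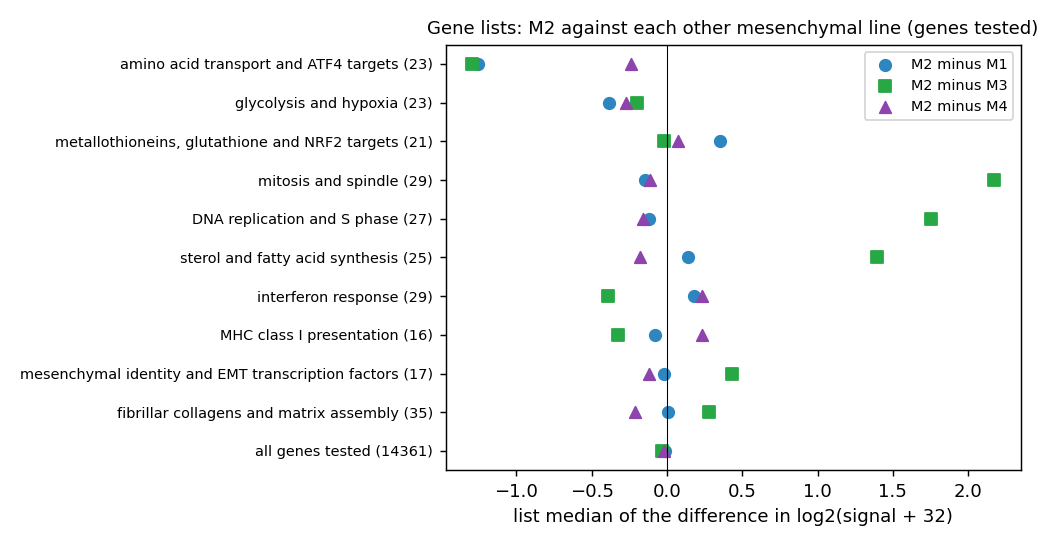
Median over each gene list of the difference of log2(normalised signal + 32) between M2 and M1, M3 or M4, with the number of genes tested in brackets and all genes in the bottom row. The amino acid and ATF4 list is below 0 against all 3 lines, with -1.256, -1.296 and -0.235 against M1, M3 and M4. The glycolysis and hypoxia list is also below 0 against all 3, with -0.385, -0.197 and -0.271. The mitosis, replication and sterol lists are far above 0 against M3 alone.

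Of 29 tested interferon response genes and 16 MHC class I genes none was called by limma in either direction. Their medians were 0.06 and 0.014, and their changes were at most 0.86 and 0.59 in size. An unadjusted limma p under 0.05 was found for 13 and 9 of them, and for 6256 of all 14361 genes tested. Markers of other cell types were looked at for the whole culture. Of 19 tested leukocyte markers 1 was called higher, S100a8, which had 3451 and 3546 in M2, against means of 236 in M1, 522 in M3 and 10062 in M4. The defining leukocyte gene Ptprc had an M2 mean of 15.03, against 5.62 to 13.2 in the other lines, and Cd3e, Cd79a and Tyrobp were at 7.32, 12.4 and 2.16 in M2. The summed signal of the 19 leukocyte markers was 4473 and 4667 on the M2 arrays, against line means of 1245 in M1, 1608 in M3 and 11480 in M4. Most of it was S100a8 in M2 and M4, but not in M1 and M3. None of 10 endothelial, 5 adipocyte, 7 muscle and 12 bone and cartilage markers was called by limma. Of them 4, 4, 2 and 5 had an unadjusted p under 0.05, which 6256 of all 14361 genes tested also had. Of 12 stromal fibroblast markers Pdgfrb was called higher and Lum lower, and of 13 glial and neuronal markers Map2 was called lower (8.07 in M2, against 201 in M1, 10.2 in M3 and 52.2 in M4, as means).

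The differences between M2 and the other lines were not spread evenly over the chromosomes. Over 9292 genes with a mean of more than 100 in a mesenchymal line, the median of the change was -0.003. On chromosome 18, 237 genes had a median difference of 0.392 against M1 and 0.383 against M4, but -0.099 against M3. Of them 78.5% had a change above 0, against 49.5% of all 9292 genes. Chromosome 8 had a median difference of 0.377 against M4 over 521 genes, and 0.006 and 0.009 against M1 and M3. Chromosome 15 had -0.326 against M1 and -0.18 against M4, over 387 genes, and 0.001 against M3. Chromosome 19 was above 0 against all 3 lines, with 0.167, 0.062 and 0.225 against M1, M3 and M4. Other chromosomes were shifted as well. Chromosomes 6 (-0.249, -0.054 and -0.184) and 7 (-0.077, -0.051 and -0.309) were below 0 against all 3. Chromosome 5 had -0.296 against M4, and chromosome 14 had 0.272 against M1. The 2 M2 arrays gave nearly the same median on chromosome 18 (0.23 and 0.235). Genes of a chromosome share their samples and are not independent, so these medians are given as a description without a test, and no DNA copy number was measured.

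**Figure D5:**
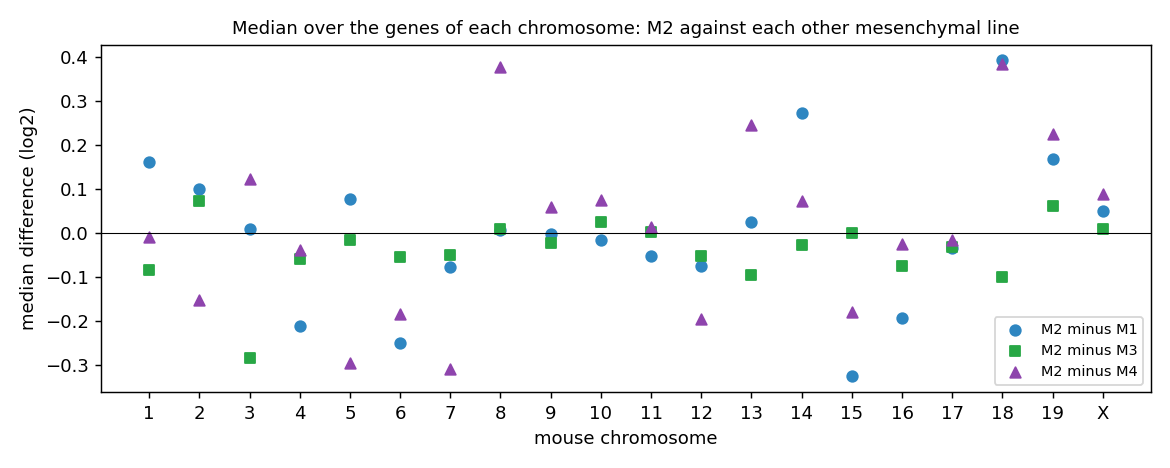
Median over the genes of each chromosome of the difference of log2(normalised signal + 32) between M2 and M1, M3 or M4, for genes with a mean above 100 in a mesenchymal line. The points for chromosome 18 lie near 0.39 against M1 and M4 and below 0 against M3, and those for chromosome 15 lie below 0 against M1 and M4.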

How the data were processed

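RNA of the lines M2, M1, M3, M4 and E was hybridized to 2 arrays per line, 10 in all. The authors deposited 1 intensity per probe set and array on a linear scale (45101 probe sets, 9 values of 0, highest value 18694.5). Per the submitters' processing notes GCOS 1.3 was used; which signal algorithm, scaling target or background correction was applied is not stated there, and detection calls were not used here. By the platform annotation, 34945 probe sets had 1 gene symbol, 932 several and 9160 none, and 34741 of those with 1 symbol were found in the gene table; 64 control probe sets were left out of the tests.

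The intensities were quantile normalized over 10 arrays, 32 was added and log2 taken. Probe sets had to exceed the 40th percentile of the array on 2 or more of the 8 mesenchymal arrays, which 31415 did, and of those the brightest over these 8 arrays stood for each of the 14361 genes. A model with a mean for each line was fitted in limma 3.58.1 under R 4.3.3, with lmFit and a trended eBayes; there were 5 residual and 7.44 prior degrees of freedom, and the median residual SD was 0.113. The mean contrast gave M2 a weight of 1 and each of the 3 other mesenchymal lines an equal negative weight. For the second rule the largest of the 3 pairwise p-values of a gene was adjusted by Benjamini-Hochberg over all genes. The number of arrays limits the precision.

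Replicate numbers did not pair the arrays: the differences between replicates 1 and 2 correlated between lines at -0.031 to 0.033. Genes named were Cck, Slc14a1, Padi4 and 12 epithelial and mesenchymal markers, the 15 highest and the 9 lowest changes among genes called by both rules, up to 4 called members of each gene list with the largest changes, and members of 3 lists around Cck, Slc14a1 and Padi4; other members are named where a list is described. The members, the 37 gene lists and the motifs were chosen with earlier results of these data known, and list counts are descriptions, not tests. The shares to set beside every list count are those of all genes tested, 1.12% called higher and 0.85% lower. Promoter sequences are from RefSeq, build GRCm38.p6. The fit was tested on simulated data. Alternatives were the scaling of arrays, the added constant, a floor, the filter, the mean of probe sets, the 8 mesenchymal arrays alone, line means, a replicate block, and leaving out each array or line.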

Additional observations from a re-analysis of the deposited data

How the results depend on the processing

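The 283 genes called against the mean of the other lines became 183 with 64 added in place of 32, 452 without line M4 and 0 with 1 mean per line, and lay between 275 and 289 when single arrays were left out. The 45 genes in which M2 stood apart became 25 with 64 added, 29 with the mean of a gene's probe sets, and 89, 140 and 153 without line M1, M3 or M4, where fewer lines remain to differ from; leaving out single arrays gave 34 to 45, with the fewest without M2 replicate 1. Under the deposited scaling, median centring and scaling to the hybridization controls, 286, 215 and 239 genes were called higher and 77, 93 and 86 lower (78.8%, 69.8% and 73.5% higher, against 56.9%), and M2 stood apart higher in 61, 48 and 55 genes and lower in 2, 3 and 4. With signals below 64 set to 64, it stood apart higher in 31 and lower in 14. Adding a replicate block changed no call (283 and 45 genes, all shared), and no other call of a named gene was lost under it.

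Across 24 settings other than line means, the change of Cck was 4.54 to 5.64, of Slc14a1 4.04 to 5.55 and of Padi4 2.70 to 4.34, and all were called. Of 79 named genes that were called, 74 to 76 kept their call under the 3 other scalings, 64 with 64 added, 66 with the mean of probe sets, and 61, 64 and 66 without line M1, M3 or M4; all were lost with line means. Against the mean of the other lines, Bnip3, Hk2, P4ha2, Bhlhe40, Bcat1, Ccn4 and Slc7a11 lost their call with line means alone, Ttll11 also with the mean of probe sets, and Gys1 under 5 further settings. By the rule for each line, Hk2 stood apart under all 24 settings, Bnip3 and Slc7a11 under 23, Bcat1 and P4ha2 under 21, Bhlhe40 under 20, Gys1 and Ttll11 under 18 and Ccn4 under 17. Changes turned sign without M3 for Birc5 (-0.10), Ccne2 (-0.065), Rrm2 (-0.020), Tk1 (-0.12) and Aqp1 (-1.05), without M4 for Il33 (0.58) and Lum (0.016), and without M1 for Saa3 (-0.26). Krt14 gave -0.0044 with 16 added, and -0.0067 and -0.093 without M1 replicate 1 or M2 replicate 1, since another of its probe sets then represented it; leaving out other arrays gave up to 1.52. The 3 mitosis genes called higher became 8, 6 and 6 under the 3 other scalings, 15 without M1, 17 without M4 and 0 without M3. Signals near the background limit the size of each change that rests on them.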

Other observations

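None of the tested interleukins, mediators and chemokines of the 2 lists stood apart from all 3 lines in M2, while Clcf1, which is outside these lists, did. Saa3, an acute phase protein, had a mean signal of 8716 in M2, against 434 in M1, 12923 in M3 and 8363 in M4, and Csf3, the granulocyte growth factor, had 2272 in M2, against 249 in M1, 2249.8 in M3 and 1801 in M4. Both were higher in M2 than in M1 and close to or below M3. Il33, an alarmin, had 60.6 in M2, against 69.4 in M1, 6.54 in M3 and 2002 in M4, and Il6 had 35.6 in M2, against 20.5 in M1, 91.4 in M3 and 419 in M4. Osmr, the oncostatin M receptor, had 203 and 184 in M2, against means of 314 in M1, 438 in M3 and 1550.1 in M4. It lay below all 6 other arrays with a change of -1.499. Other Osmr probe sets gave -0.86 and -0.09 and were not called. Osmr lost its call with the mean of probe sets and without M4. Of 23 tested interleukins and mediators 2 were called higher in M2 and 3 lower, with a median change of 0.268; of 22 tested chemokines Cxcl16 was called higher and Ccl9 and Ccl20 lower, with a median of 0.009.

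Genes induced early after growth signals, and the inhibitors of differentiation Id2 and Id4, were also called. Egr2 had a mean of 378 in M2, against 123 in M1, 53.4 in M3 and 185 in M4, and Egr3 had 304 in M2, against 170.5 in M1, 65.6 in M3 and 116 in M4. Both M2 arrays were above all 6 others for these zinc finger genes, with changes of 1.53 and 1.24. A second Egr3 probe set gave -0.22 and was not called, and Egr3 lost its call with the mean of probe sets and without M3. Id4 had 1010 and 1001 in M2, against means of 602 in M1, 199.8 in M3 and 103 in M4, a change of 1.94. Id2 had a mean of 1092 in M2, against 348 in M1, 219 in M3 and 1235 in M4, so M2 was not above M4. Other Id2 probe sets gave 0.55 and 0.33 and were not called. Id2 lost its call with the mean of probe sets and without M1 or M3. Of 29 tested early response and Kruppel-like genes Egr2, Egr3 and Dusp5 were called higher and Atf3 lower, with a median change of 0.201. The shares were 10.3% higher and 3.45% lower, against 1.12% and 0.85% of all genes tested.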
